A study of Mus musculus with 9 samples.

Results

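The inflammasome and gasdermin genes Nlrp3, Nlrp6, Nlrc4, Aim2, Pycard, Casp1, Casp4, Gsdmc, Gsdmd and Gsdma were followed in mouse colon by taking each probe whose platform gene symbol matched one of these names. Of the 10 genes, 8 had a probe, with 1 probe each among the 26423 probes of the array, which name 17742 genes in all. Pycard, which encodes the adaptor ASC, and Casp4, which encodes murine caspase-11, were not analysed here. The study hybridised colon RNA of female BALB/c mice to single-colour arrays, 3 per group. In the Vanillin group, mice were injected with azoxymethane (AOM, a colon carcinogen) at 12.5 mg/kg on day 1 and then had 2.5% DSS (dextran sodium sulfate, an agent that damages colonic epithelium) in their water for 5 days from day 8. Plain water for 16 days closed each cycle, 3 further cycles came after the opening one, and vanillin was given by mouth at 100 mg/kg on 91 days in a row. Sham mice went through the AOM and DSS course without vanillin, and Mock mice had no treatment. The sources used here give neither age nor pooling, nor whether each array had its own mouse, so p-values rest on a spread between arrays that may be purely technical.

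Inflammasomes are cytosolic platforms that form when a sensor protein detects danger or microbial signals: NLRP3 responds to membrane and ion disturbances, NLRC4 to bacterial proteins presented by NAIP receptors, and AIM2 to DNA in the cytosol, while NLRP6 is prominent in the intestinal epithelium. Most sensors recruit caspase-1 through ASC. Caspase-1 then cuts pro-interleukin-1β, pro-interleukin-18 and gasdermin D, whose amino-terminal part opens pores in the plasma membrane and can end in a lytic death called pyroptosis. Mice lacking caspase-1, ASC or NLRP6 are known to develop more colon tumours in AOM/DSS experiments. The array measures transcripts, and says nothing of cleavage or of pore formation.

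Values are probe intensities on the authors' normalized linear scale. Changes are differences of log2(intensity + 16) with their standard error (SE), from a limma model of all 9 arrays, and a probe was called at a Benjamini-Hochberg adjusted p under 0.05 over all probes. Arrays of a group correlated at 0.995 to 0.998 over all probes, and arrays of different groups at 0.926 to 0.973. The 20th percentile of intensity was 49.4 to 50.6 per array, and the lowest value of any inflammasome or gasdermin probe was 85.9.

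The tissue itself differed between the groups. The 12 colonocyte markers had summed intensities of 226092 to 231921 in Vanillin, 225439 to 242532 in Sham and 286421 to 295536 in Mock, sums that Lgals4 and Epcam, close to the top of the range, dominate. Marker by marker, 7 of the 12 fell and 0 rose in Vanillin minus Sham (median -0.29, and 4 fell with loess), the direction of most inflammasome genes given below. In Sham minus Mock 4 of the 12 rose and 3 fell (median 0.02), and with loess 2 rose and 4 fell. Of the colonocyte markers Krt8 was at or below 0 in every array except Mock 1 (15.1). Macrophage and monocyte markers went the other way in Vanillin minus Sham, where 6 of 11 rose and 2 fell (median 0.20). Squamous epithelium markers, which colonic mucosa lacks, summed to 360373 to 416701 in Vanillin, 27233 to 28261 in Sham and 609637 to 612999 in Mock, with all 15 lower in Sham than in Mock and 14 of 15 higher in Vanillin than in Sham. The adipocyte markers summed to 92924 to 96337 in Vanillin, 3272 to 3388 in Sham and 103983 to 105871 in Mock, and the skeletal muscle and hair follicle markers had the same order of groups. None of the squamous, adipocyte, muscle or hair follicle markers was at 0 in every array. However, 3 of 15 squamous and 3 of 12 hair follicle markers stayed under 50 in all Sham arrays, and 1 of 9 adipocyte markers in every array. The part that this difference in tissue plays in the results below was not tested, and in bulk RNA fewer cells of a type cannot be told apart from less RNA per cell.

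**Figure D1:**
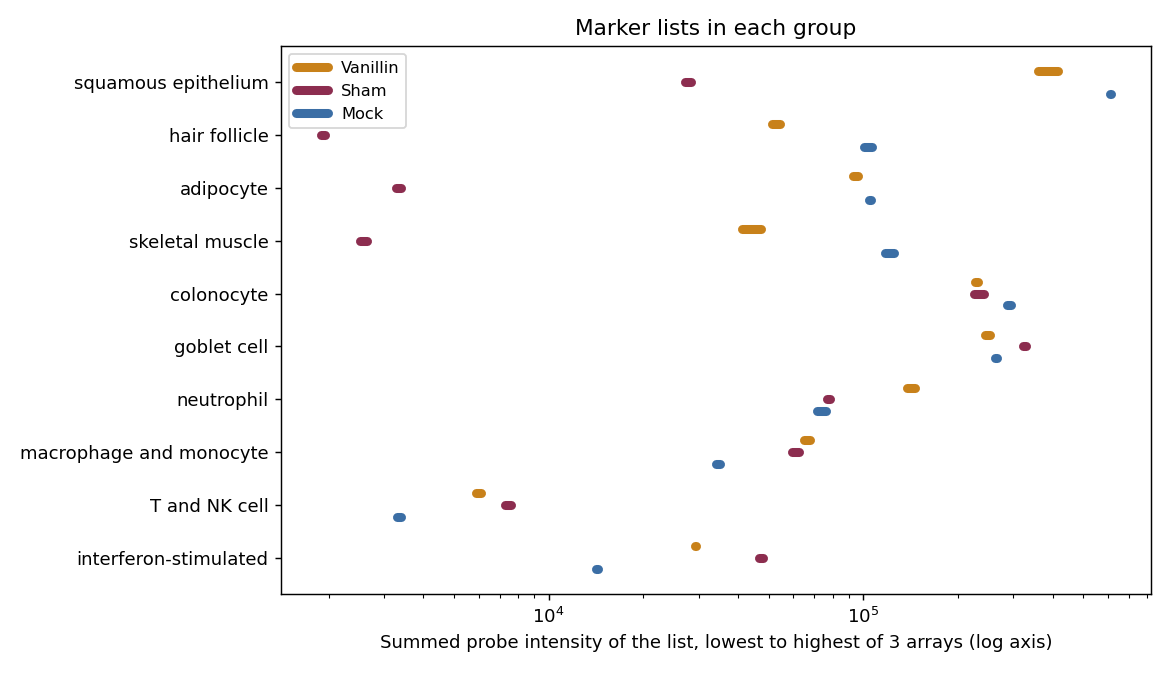
Summed probe intensity of each marker list (log axis), with a line running from the lowest to the highest of the 3 arrays of each group. Squamous, hair follicle, adipocyte and skeletal muscle lists lie far lower in Sham than in Vanillin or Mock, whereas the interferon-stimulated list is highest in Sham (46650 to 48141, against 29151 to 29460 in Vanillin and 14134 to 14388 in Mock).

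With vanillin, transcripts of the sensors Nlrp3, Nlrp6, Nlrc4 and Aim2, of caspase-1 and of gasdermin D fell relative to Sham, and those of Gsdmc and Gsdma rose. In Vanillin minus Sham, 8 of 8 genes were called, where 47.9% of all probes were called in either direction. Of the 8, 6 fell (32.2% of all probes fell) and 2 rose (15.7% of all probes rose), with a median change of -0.45 against -0.09 over all probes. In Sham minus Mock, 7 of 8 genes were called (59.7% of all probes), 6 of them higher (36.5% of all probes) and 1 lower (23.2% of all probes), with a median of 0.28 against 0.10 over all probes. In Vanillin minus Mock, 7 of 8 were called (50.7% of all probes), 3 higher (24.5%) and 4 lower (26.2%), with a median of -0.16 against 0.00. The Sham arrays enter the first 2 of these comparisons, and an opposite sign there is therefore no independent result.

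The scaling of the arrays bears on the small increases in Sham. Cyclic loess normalization, which brought the median change of all probes in Sham minus Mock to 0.00, left 3 genes higher and 1 lower there, with Nlrp6 at 0.11 (adjusted p = 0.37), Casp1 at 0.10 (adjusted p = 0.18) and Gsdmc at -0.01 (adjusted p = 0.87), so the direction of Gsdmc flips. Of all 26423 probes, loess called 6979 higher and 7981 lower in Sham minus Mock. Among all called probes the share that was higher was then 46.7%, against 61.1% on the deposited scale. In Vanillin minus Sham that share was 54.1% under loess (5947 probes higher and 5040 lower), against 32.7%. All 8 inflammasome and gasdermin genes kept their direction and call there, 6 lower and 2 higher.

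**Figure D2:**
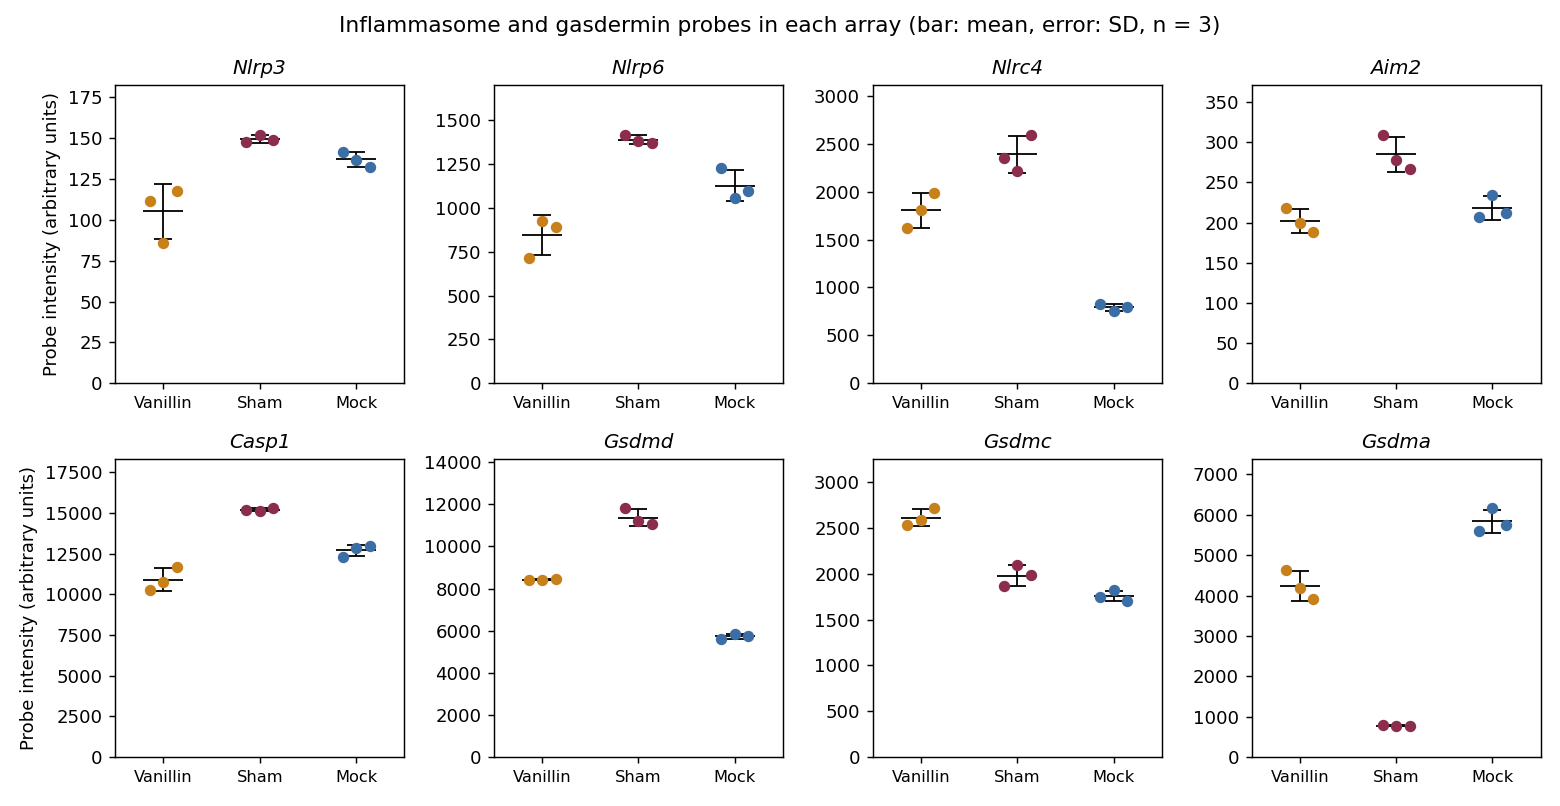
Probe intensity (linear, from 0) of the 8 genes in each of the 9 arrays, with group mean and SD (n = 3). Nlrp3, Nlrp6, Nlrc4, Aim2, Casp1 and Gsdmd have their highest arrays in Sham, Gsdmc is highest in Vanillin, and Gsdma is far lower in Sham (760.8 to 780.3) than in the other arrays.

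Nlrc4, the sensor that NAIP proteins engage, had intensities of 1620.4, 1808.6 and 1986.7 in Vanillin, 2357.5, 2217.8 and 2596.4 in Sham, and 829.4, 753.1 and 792.3 in Mock. The 3 groups did not overlap, with Mock lowest and Sham highest. Nlrc4 fell by 0.40 in Vanillin minus Sham (SE 0.087, adjusted p = 0.0045) and rose by 1.57 in Sham minus Mock (SE 0.087, adjusted p = 3.4e-07), the largest increase of the 8 genes there. It remained above Mock by 1.17 (SE 0.087, adjusted p = 4.7e-06) in the Vanillin group.

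The NAIP genes, which encode the receptors that load NLRC4 with bacterial ligands, were measured for Naip2, Naip5 and Naip6. Naip5, a flagellin receptor in mice, averaged 1376 in Vanillin, 2470 in Sham and 1101 in Mock. It fell by 0.84 in Vanillin minus Sham (SE 0.048, adjusted p = 1.3e-06) and rose by 1.15 in Sham minus Mock (SE 0.048, adjusted p = 4.7e-08). Naip6, also a flagellin receptor, averaged 377, 532 and 284 in Vanillin, Sham and Mock, and fell by 0.48 (SE 0.072, adjusted p = 0.0006) in Vanillin minus Sham. Naip2, which binds the inner rod protein of bacterial secretion systems, was 0.66 higher in Sham than in Mock (SE 0.108, adjusted p = 0.0006). Its change in Vanillin minus Sham was -0.19 (SE 0.108, adjusted p = 0.19). That value became -0.31 (adjusted p = 0.015) without Sham replicate 2 and -0.07 (adjusted p = 0.64) with loess. The NAIP genes are close copies of each other, and their probe sequences were not used here, so signal shared between them was not separated.

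Nlrp3, which encodes the broad danger sensor, was the dimmest of the 8 probes, at 111.8, 85.9 and 117.8 in Vanillin, 147.6, 152.2 and 148.8 in Sham, and 141.8, 136.6 and 132.6 in Mock. All Vanillin arrays were below all Sham and Mock arrays. Nlrp3 fell by 0.46 in Vanillin minus Sham (SE 0.093, adjusted p = 0.0033) and by 0.35 in Vanillin minus Mock (SE 0.093, adjusted p = 0.013). In Sham minus Mock the change was 0.11 (95% interval -0.10 to 0.33, adjusted p = 0.32), and the gene was not called, although the arrays of these groups do not overlap.

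Nlrp6 encodes a sensor linked in mice to mucus release by goblet cells and to the make-up of the gut flora. Its intensities were 714.6, 926.9 and 891.3 in Vanillin, 1417.0, 1378.4 and 1370.3 in Sham, and 1227.1, 1054.2 and 1098.0 in Mock. The Vanillin arrays were lowest and the Sham arrays highest, with no overlap. Nlrp6 fell by 0.72 in Vanillin minus Sham (SE 0.098, adjusted p = 0.00035), the largest decrease of the 8 genes in that comparison, and by 0.42 in Vanillin minus Mock (SE 0.098, adjusted p = 0.0065). Goblet cell markers moved with it: 6 of 8 fell in Vanillin minus Sham (median -0.47), and their summed intensity was 243451 to 252014 in Vanillin, 322020 to 329640 in Sham and 262035 to 266335 in Mock. Their part in the Nlrp6 result was not tested.

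The increase of Nlrp6 in Sham minus Mock, 0.30 (SE 0.098, adjusted p = 0.025), was close to the threshold. Its adjusted p was 0.083 without Mock replicate 2 and 0.072 without Mock replicate 3. Leaving out Sham replicate 1, 2 or 3 gave an adjusted p of 0.068, 0.056 or 0.052.

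Aim2, the sensor of cytosolic DNA and an interferon-inducible gene, had intensities of 217.8, 199.3 and 188.6 in Vanillin, 309.6, 278.3 and 267.1 in Sham, and 206.6, 234.6 and 212.6 in Mock. The Sham arrays were above all others, while Vanillin and Mock arrays overlapped. Aim2 fell by 0.47 in Vanillin minus Sham (SE 0.077, adjusted p = 0.001) and rose by 0.36 in Sham minus Mock (SE 0.077, adjusted p = 0.0027). In Vanillin minus Mock the change was -0.10 (95% interval -0.28 to 0.07, adjusted p = 0.3). Interferon-stimulated genes ran the same way in Vanillin minus Sham, with 17 of 18 lower (median -0.69), and in Sham minus Mock, with 16 of 18 higher (median 1.64). They differed from Aim2 in Vanillin minus Mock, where 15 of 18 were higher and 1 was lower (median 0.93). The part of these genes in the Aim2 result was not tested.

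The 14 other measured sensor genes did not share a direction. In Vanillin minus Sham 4 rose, 4 fell and 6 were not called (median 0.01), and in Sham minus Mock 8 rose, 3 fell and 3 were not called (median 0.28). Under loess these counts were 5, 3 and 6, and 7, 4 and 3. Zbp1, an interferon-inducible sensor of Z-form nucleic acids that can start inflammatory cell death, averaged 631 in Vanillin, 1476 in Sham and 146 in Mock, and fell by 1.21 in Vanillin minus Sham (SE 0.062, adjusted p = 6.4e-07).

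Mefv, which encodes pyrin and is expressed in neutrophils and monocytes, went the other way, averaging 378 in Vanillin, 275 in Sham and 99 in Mock. It rose by 0.44 in Vanillin minus Sham (SE 0.055, adjusted p = 0.00021), as did its dimmer probes by 0.33 and 0.26. Neutrophil markers rose as well, 10 of 11 in Vanillin minus Sham (median 0.74), with sums of 137410 to 145829 in Vanillin, 76712 to 78624 in Sham and 71344 to 76420 in Mock. These sums hide a rise in Sham, since Ltf, which averages far higher in Mock, S100a9 and Il1r2 carry most of the Mock sum: 7 of the 11 markers rose and 4 fell in Sham minus Mock (median 2.11). Their part in the Mefv change was not tested. Nlrp10, a gene expressed in skin, averaged 315 in Vanillin, 135 in Sham and 678 in Mock, the order of the squamous markers, and rose by 1.13 in Vanillin minus Sham (SE 0.065, adjusted p = 1.4e-06).

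Casp1, the protease at the centre of these complexes, had intensities of 10287.8, 10736.9 and 11678.9 in Vanillin, 15207.6, 15156.0 and 15290.8 in Sham, and 12315.0, 12858.3 and 12954.3 in Mock. The groups did not overlap, with Vanillin lowest and Sham highest. Casp1 fell by 0.48 in Vanillin minus Sham (SE 0.056, adjusted p = 0.00013) and by 0.22 in Vanillin minus Mock (SE 0.056, adjusted p = 0.0088). In Sham minus Mock it rose by 0.26 on the deposited scale (SE 0.056, adjusted p = 0.003), a call that was lost with loess as given above.

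Among 6 other measured caspases, 4 fell, 1 rose and 1 was not called in Vanillin minus Sham (median -0.22), and under loess 1 fell, 1 rose and 4 were not called. Casp6, an executioner caspase, averaged 2574 in Vanillin, 4041 in Sham and 1505 in Mock and fell by 0.65 in Vanillin minus Sham (SE 0.048, adjusted p = 7.9e-06). Casp14, the caspase of cornifying skin, was the riser, at 2.23 (SE 0.071, adjusted p = 1.8e-08), with means of 1465 in Vanillin, 298 in Sham and 2593 in Mock. Relative to Mock, Sham had 4 caspases higher, 1 lower and 1 not called (median 0.26), with Casp6 higher by 1.41 and Casp8, which can cut gasdermin D when other routes are blocked, by 1.19 (SE 0.078, adjusted p = 1.2e-06). Under loess 2 of the 6 were higher and 2 lower.

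**Figure D3:**
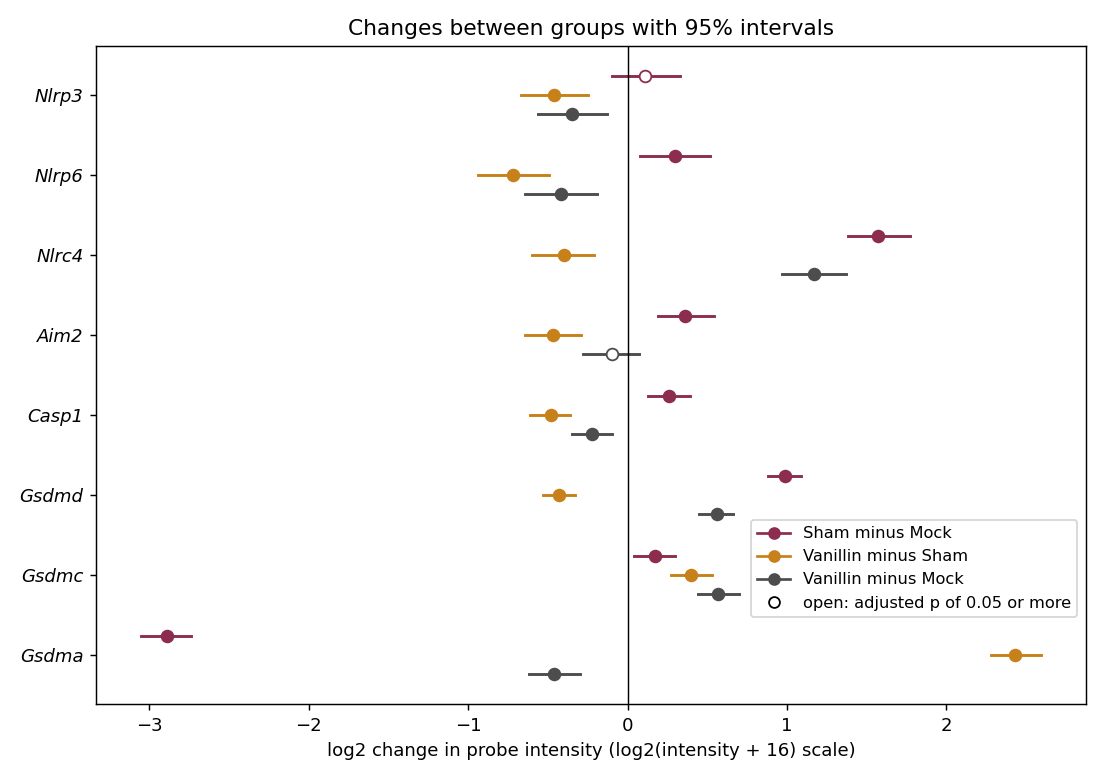
Changes of the 8 genes on the log2(intensity + 16) scale with 95% intervals (points filled where the adjusted p is under 0.05). In Vanillin minus Sham the 6 genes that fell lie between -0.72 and -0.40 and Gsdma lies at 2.43. The positive Sham minus Mock value of Gsdmc (0.17) becomes -0.01 with loess.

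Gsdmd, the pore-forming substrate of caspase-1, had intensities of 8412.1, 8408.1 and 8456.1 in Vanillin, 11804.7, 11222.3 and 11073.2 in Sham, and 5583.1, 5827.6 and 5767.8 in Mock. Each group was clear of the others, with Vanillin between Sham and Mock. Gsdmd fell by 0.43 in Vanillin minus Sham (SE 0.045, adjusted p = 7.2e-05), rose by 0.99 in Sham minus Mock (SE 0.045, adjusted p = 9.4e-08) and was still 0.56 above Mock in Vanillin (SE 0.045, adjusted p = 8.9e-06). Nlrc4 and Gsdmd were thus higher in Vanillin than in Mock, while Nlrp3, Nlrp6 and Casp1 were lower.

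Gsdmc, a gasdermin of the intestinal epithelium in mice, had intensities of 2535.0, 2588.0 and 2715.6 in Vanillin, 1867.6, 2094.6 and 1984.6 in Sham, and 1750.8, 1821.7 and 1705.0 in Mock. Vanillin arrays were highest and clear of both other groups. Gsdmc rose by 0.40 in Vanillin minus Sham (SE 0.057, adjusted p = 0.00049) and by 0.57 in Vanillin minus Mock (SE 0.057, adjusted p = 3.8e-05). Its change of 0.17 in Sham minus Mock (SE 0.057, adjusted p = 0.03), which reached -0.01 with loess, had an adjusted p of 0.069 or 0.1 when Mock array 1 or 3 was left out, and of 0.098 or 0.065 when Sham array 2 or 3 was left out. Mice carry several close copies next to Gsdmc (Gsdmc2, Gsdmc3 and Gsdmc4), which had no probe of that name here, and any signal from them was not separated.

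Gsdma, a gasdermin expressed mainly in skin and other squamous epithelia, had intensities of 4642.9, 4185.6 and 3911.1 in Vanillin, 780.3, 774.8 and 760.8 in Sham, and 5589.7, 6159.2 and 5758.7 in Mock. It had the largest changes of the 8 genes, a rise of 2.43 in Vanillin minus Sham (SE 0.069, adjusted p = 7.6e-09) and a fall of 2.89 in Sham minus Mock (SE 0.069, adjusted p = 9.6e-10). In Vanillin minus Mock it fell by 0.46 (SE 0.069, adjusted p = 0.00046). The squamous markers had the same order of groups, with a median of 5.33 in Vanillin minus Sham and -0.76 in Vanillin minus Mock, and of -6.49 for Sham minus Mock. Their part in the Gsdma change was not tested.

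The genes neighbouring Gsdma in the RefSeq assembly are its paralogs Gsdma2 and Gsdma3. Gsdma3, which is expressed in mouse hair follicles, averaged 255 in Vanillin, 124 in Sham and 225 in Mock and rose by 0.95 in Vanillin minus Sham (SE 0.161, adjusted p = 0.0012). Gsdma2 averaged 449, 318 and 361 in Vanillin, Sham and Mock, and rose by 0.48 in Vanillin minus Sham (SE 0.090, adjusted p = 0.002). Its change in Vanillin minus Mock, 0.31 (adjusted p = 0.019), had an adjusted p of 0.07 without Mock replicate 3 and 0.057 without Vanillin replicate 2. These paralogs are close copies of the far brighter Gsdma, and any signal from it in their probes was not separated. Gsdme, which caspase-3 can cut, averaged 551 in Vanillin, 560 in Sham and 338 in Mock, was higher in Sham than in Mock by 0.70 (SE 0.052, adjusted p = 2.6e-06) and was not called in Vanillin minus Sham (-0.02, adjusted p = 0.78, and 0.14 with loess). Pjvk, which encodes pejvakin, a protein of inner ear hair cells, averaged 92.2 in Vanillin, 79.8 in Sham and 100 in Mock. Its change of 0.18 in Vanillin minus Sham (SE 0.058, adjusted p = 0.033) was not called under 8 alternatives, namely an intensity trend (adjusted p = 0.057), the replicate block over 9 arrays (0.05) or over the Sham and Vanillin arrays (0.062), and without Sham array 1 or 2 or any 1 of the Vanillin arrays (0.059 to 0.094). Of the 4 measured paralogs, 3 thus rose on the deposited scale and 1 was not called in Vanillin minus Sham, while in Sham minus Mock 1 rose, 2 fell and 1 was not called (1 and 3 with loess).

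**Figure D4:**
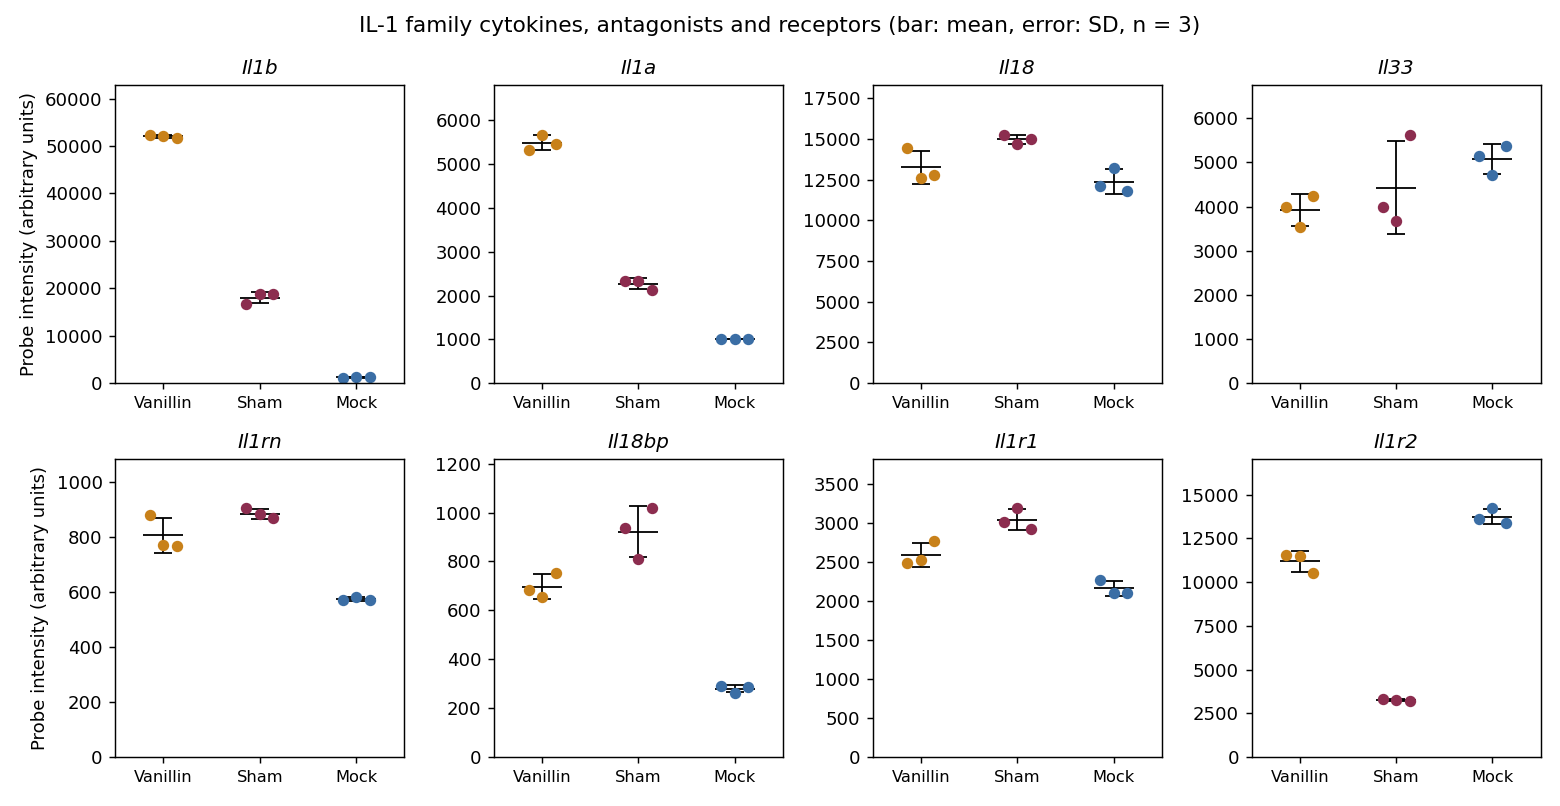
Probe intensity (linear, from 0) of IL-1 family cytokines, antagonists and receptors in each array, with group mean and SD (n = 3). Il1b is highest in Vanillin (51654.9 to 52407.1) and lowest in Mock, whereas Il1r2 is lowest in Sham (3197.8 to 3297.6).

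Transcripts of both forms of interleukin-1 ran opposite to Casp1 in Vanillin minus Sham. Il1b, which encodes pro-interleukin-1β, had intensities of 52407.1, 52046.9 and 51654.9 in Vanillin, 16741.7, 18726.0 and 18714.0 in Sham, and 1102.2, 1307.2 and 1268.9 in Mock. It was higher in Vanillin than in Sham by 1.53 (SE 0.074, adjusted p = 4e-07) and in Sham than in Mock by 3.87 (SE 0.074, adjusted p = 2.1e-10). The Vanillin values approach the top of the intensity range (65509 to 65510 per array), where differences are compressed. Il1a, a related cytokine that needs no caspase-1 cut, averaged 5493 in Vanillin, 2268 in Sham and 1009 in Mock and rose by 1.27 in Vanillin minus Sham (SE 0.053, adjusted p = 1.4e-07).

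Il18, which encodes the other main substrate, averaged 13269 in Vanillin, 14978 in Sham and 12377 in Mock. Its change in Vanillin minus Sham was -0.18 (SE 0.068, adjusted p = 0.058) and passed the threshold at -0.24 (adjusted p = 0.013) without Vanillin replicate 1. It also passed with a pseudocount of 64, without dim probes, with an intensity trend and with array weights (adjusted p 0.015 to 0.044). With loess the change was weaker, at -0.10 (adjusted p = 0.28). In Sham minus Mock Il18 rose by 0.28 (SE 0.068, adjusted p = 0.0063), but by 0.11 with loess (adjusted p = 0.19). Il18bp, the secreted inhibitor of interleukin-18, averaged 697 in Vanillin, 922 in Sham and 279 in Mock, and rose by 1.66 in Sham minus Mock (SE 0.090, adjusted p = 3e-07). Its fall of 0.39 in Vanillin minus Sham (adjusted p = 0.0064) had an adjusted p of 0.078 with loess.

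Among the receptors and antagonists, Il1r2, the decoy receptor for interleukin-1, averaged 11196 in Vanillin, 3246 in Sham and 13746 in Mock. It rose by 1.78 in Vanillin minus Sham (SE 0.053, adjusted p = 1.1e-08) and had the order of groups of the squamous markers. It is also 1 of the 10 neutrophil markers that rose in that comparison, so it is not separate from that list. Il1rn, the receptor antagonist, was 0.61 higher in Sham than in Mock (SE 0.059, adjusted p = 1.8e-05) and had -0.14 in Vanillin minus Sham (adjusted p = 0.089), which became -0.20 (adjusted p = 0.0087) without Vanillin replicate 1 and 0.03 with loess. Of the 11 genes of this list, 5 rose, 2 fell and 4 were not called in Vanillin minus Sham (median 0.22), and with loess 6 rose and 0 fell. With the replicate block in the Sham and Vanillin arrays 5 rose and 1 fell. The Sham minus Mock counts were 7 higher, 3 lower and 1 uncalled (median 0.49), where loess gave 6, 4 and 1.

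Of 23 measured regulators of inflammasomes and pyroptosis, 12 fell, 4 rose and 7 were not called in Vanillin minus Sham (median -0.29), and loess gave the same 3 counts. Against Mock, 17 rose in Sham, 5 fell and 1 was not called (median 0.45), where loess gave 13, 6 and 4. Gbp2 and Gbp3 encode guanylate-binding proteins, which in mice help caspase-11 and AIM2 reach bacteria and their products. Gbp2 averaged 8451 in Vanillin, 14103 in Sham and 3151 in Mock and fell by 0.74 in Vanillin minus Sham (SE 0.053, adjusted p = 6.5e-06). Gbp3 averaged 3125, 5356 and 1017 in Vanillin, Sham and Mock, and fell by 0.77 (SE 0.043, adjusted p = 1.1e-06). Irf8, a transcription factor that drives Naip and Nlrc4 transcription in mouse myeloid cells, fell by 0.72 (SE 0.070, adjusted p = 4.3e-05), with means of 791 in Vanillin, 1318 in Sham and 554 in Mock. Igtp, an interferon-inducible GTPase, fell by 0.70 (SE 0.057, adjusted p = 1.5e-05). Gzmb, a granzyme that can cut gasdermin E, averaged 1487 in Vanillin, 2608 in Sham and 130 in Mock and fell by 0.80 in Vanillin minus Sham (adjusted p = 8e-05). Cd14, a co-receptor for bacterial lipopolysaccharide, averaged 46950 in Vanillin, 31716 in Sham and 7598 in Mock and rose by 0.57 in Vanillin minus Sham (adjusted p = 0.00019). Its Vanillin arrays (45889.2 to 48011.7) are not far below those of Il1b, so this rise may be compressed too. Gbp2, Gbp3 and Zbp1 also belong to the interferon-stimulated list, so these counts are not separate from it.

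**Figure D5:**
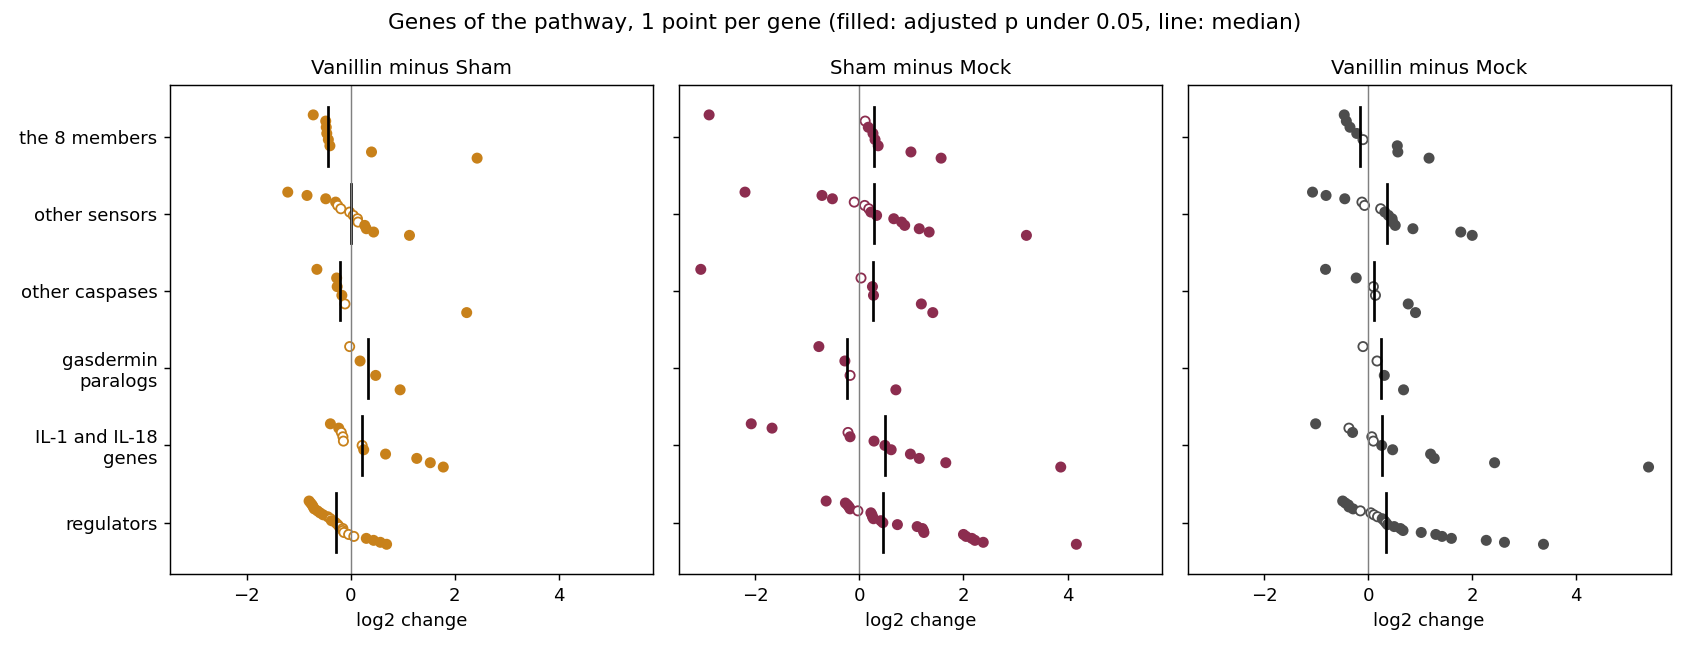
Changes on the log2(intensity + 16) scale of each gene of the 8-gene set and of 5 related lists in 3 comparisons, with 1 point per gene, filled where the adjusted p is under 0.05, and a line at the list median. In Vanillin minus Sham the medians are -0.45 for the 8 genes, 0.01 for other sensors, -0.22 for other caspases, 0.33 for gasdermin paralogs, 0.22 for IL-1 and IL-18 genes and -0.29 for regulators.

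The probes most like a gene over the 9 arrays were listed where its own log2 range was at least 1, which held for Nlrc4, Gsdmd and Gsdma. The correlations (Pearson's r over 9 arrays that fall into 3 groups) mostly describe the 3 group levels. Gsdma was most like Gal3st4 (0.9998), Dnase1l2 (0.9996), a nuclease of cornifying skin, and Krt33a (0.9996), a hair keratin, and 718 of 4808 probes searched exceeded 0.95. Gsdmd was most like Sox2 (0.9996), Gpr171 (0.9992) and Tpx2 (0.9987), the last a spindle assembly factor. Nlrc4 was most like Evl (0.9982), Cnn3 (0.9973) and Kif15 (0.9970), the last a spindle motor. Here too many probes exceeded 0.95, 917 for Gsdmd and 836 for Nlrc4.

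Promoter windows, from 250 bases before to 50 bases after the annotated start, were on hand in RefSeq (GRCm38.p6) for 5 of the 8 genes, Nlrp3 with 2 starts, giving 6 windows. They were searched on both strands for 5 motifs chosen after the values were known. These 5 genes (Nlrp3, Nlrp6, Nlrc4, Aim2 and Casp1) all fell in Vanillin minus Sham, and Gsdmd, which also fell, had no window. The interferon response core GAAANNGAA was in none of the 6 windows and in 8.56% of all 32851 windows, and the STAT core TTCNNNGAA was in none and in 8.3%. At such shares 6 windows are too few for an absence to say anything about these genes. The AP-1 core TGANTCA was in the Nlrp6 window alone (7.81% of all windows), the PU.1 core GAGGAAGT in the Aim2 window alone (3.2%), and the NF-κB consensus in 1 Nlrp3 window alone (4.51%). No window held matches to more than 1 motif. The windows with a match are printed here, 5′ to 3′ on the coding strand, with the matched letters in capitals. A match is a run of letters and not a measured binding site.
Nlrp6 (chr7:140920652-140920951, plus strand): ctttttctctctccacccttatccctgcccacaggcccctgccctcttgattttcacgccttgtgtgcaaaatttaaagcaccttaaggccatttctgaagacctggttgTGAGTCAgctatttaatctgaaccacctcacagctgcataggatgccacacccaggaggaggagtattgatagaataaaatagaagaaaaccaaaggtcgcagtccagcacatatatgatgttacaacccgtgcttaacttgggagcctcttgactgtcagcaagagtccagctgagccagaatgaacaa
Aim2 (chr1:173420354-173420653, plus strand): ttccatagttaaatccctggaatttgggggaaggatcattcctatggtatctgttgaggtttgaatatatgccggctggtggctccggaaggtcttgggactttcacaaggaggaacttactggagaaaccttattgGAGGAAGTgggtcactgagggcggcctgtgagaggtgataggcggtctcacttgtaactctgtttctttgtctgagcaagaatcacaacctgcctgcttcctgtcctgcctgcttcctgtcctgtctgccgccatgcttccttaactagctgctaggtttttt
Nlrp3 (chr11:59541319-59541618, plus strand): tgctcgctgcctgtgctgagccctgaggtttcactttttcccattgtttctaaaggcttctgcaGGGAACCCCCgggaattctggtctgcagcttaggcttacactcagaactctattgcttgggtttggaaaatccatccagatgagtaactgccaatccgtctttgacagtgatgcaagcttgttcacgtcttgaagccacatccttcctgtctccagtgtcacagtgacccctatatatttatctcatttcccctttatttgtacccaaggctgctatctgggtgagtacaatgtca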

How the data were processed

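Colon RNA from 9 samples (3 per group) was labelled with Cy5 per the labels, and limma is named without a role or version per the submitters' processing notes. The deposited values are probe intensities on a linear scale, with 3 to 14 probes per array below 0 and nearly the same distribution in each array (medians 319.6 to 320.1). The sources used here do not give the background method, the scanner or probe filters.

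Groups were taken from the sample titles. Probes were named from the platform's symbol table (20377 of 26423 with 1 symbol, 6046 with none), with 2126 old symbols updated through RefSeq. Negative values were set to 0, and log2(value + 16) went into a two-sided linear model of 3 group means (limma 3.58.1, R 4.3.3, eBayes without a trend, residual df 6, prior df 2.69). Benjamini-Hochberg adjustment ran over the 26423 probes of each of 3 comparisons. In data simulated for Vanillin minus Sham over 26423 probes, shifts of 0.25, 0.5, 1 and 2 were called in 0, 36, 47 and 50 of 50 probes, and 12 unshifted probes were called. Only the probes with these shifts differed between groups there, whereas 47.9% of all probes were called in the real comparison. The adjusted threshold was therefore stricter in the simulation, which sets no lower limit for the changes called here. Array signal carries no read depth, so the number of arrays limits the precision.

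All 8 genes and their probes were named whatever their values. Related and marker lists use the brightest probe of a gene, and up to 4 of their genes with the smallest p, plus Il1b, Il18, Il1rn, Il18bp, the gasdermin paralogs and the NAIP genes, were named. Genes and lists were chosen with earlier results of these data known. The labels give no reason for same-numbered arrays to be paired. Deviations of same-numbered arrays from their group means correlated at 0.13 to 0.20 in all 3 Sham and Vanillin pairs (other numbers -0.20 to 0.00). In the 6 pairs with Mock they correlated at -0.29 to -0.02, while differently numbered Mock and Vanillin arrays reached 0.21. These values do not establish that the numbers pair the Sham and Vanillin arrays. A fit of the Sham and Vanillin arrays with the replicate block was added after seeing the data. Alternatives were other pseudocounts (1 and 64), no dim probes, median centring, cyclic loess, 6-array fits, array weights, an intensity trend, the replicate block and leaving out each array.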

Additional observations from a re-analysis of the deposited data

How the results depend on the processing

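Of the 24 changes (8 genes in 3 comparisons), 21 kept direction and call under all 18 alternatives (19 in Vanillin minus Sham), among them all 8 in Vanillin minus Sham and all 8 in Vanillin minus Mock. The exceptions were Nlrp6, Casp1 and Gsdmc in Sham minus Mock. With cyclic loess 4 genes were called there in place of 7, and Gsdmc had a change of -0.01. Of all 26423 probes, 6979 were then called higher and 7981 lower. The cause was not tested. Leaving out single arrays ended calls of Nlrp6 and Gsdmc only, as given above. With the replicate block 6 genes were called in Sham minus Mock (Nlrp6 at an adjusted p = 0.054), 8 in Vanillin minus Sham and 7 in Vanillin minus Mock, and the block changed no other call of the 8 genes. In the Sham and Vanillin arrays alone the replicate block, an alternative chosen after seeing the data, kept all 8 calls (adjusted p 2.3e-05 to 0.019). Among the other genes named it ended the call of Pjvk, and whether the numbers pair these arrays is not known. Over the alternatives Nlrp3, the dimmest probe, ranged from -0.60 to -0.33 in Vanillin minus Sham. Array signal near the top of the range limits Il1b and may limit Cd14, and 3 arrays per group limit all values.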

Other observations

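The platform also names 9 probes of the NLR and gasdermin families that are in no list, looked at after the values were seen. Most belong to NLR genes known from oocytes and early embryos. Nlrp4b, Nlrp4c, Nlrp4d, Nlrp4f and Nlrp14 had group means of at most 40.2. None of these 5 was called in Vanillin minus Sham or in Sham minus Mock, and only Nlrp4f was called in Vanillin minus Mock (-0.31, adjusted p = 0.027). Nlrp5, a maternal-effect gene, averaged 358 in Vanillin, 432 in Sham and 323 in Mock, fell by 0.26 in Vanillin minus Sham (adjusted p = 0.0059) and rose by 0.41 in Sham minus Mock (adjusted p = 0.00029). Gsdmcl2, a pseudogene within the Gsdmc cluster, averaged 37.3 in Vanillin, 27.3 in Sham and 23.5 in Mock. It rose by 0.30 in Vanillin minus Sham (adjusted p = 0.0067), so it was higher with vanillin, as Gsdmc was. Any signal from the far brighter Gsdmc in its probe was not separated. The log2(intensity + 16) scale understates changes of probes this dim. Nlrp4g averaged 2574 in Vanillin, 2126 in Sham and 2145 in Mock, with a change of 0.28 in Vanillin minus Sham (adjusted p = 0.048).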
